A study of Mus musculus with 6 samples.

Results

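Glutamate and GABA receptor genes were examined in green fluorescent cells sorted from the mouse hippocampus. The set holds the subunits of the NMDA, kainate and delta receptors, the metabotropic glutamate receptors and the GABA-A and GABA-B receptors, chosen by gene symbol. The symbol rule matched 43 genes of the deposited table, and 40 of them had a value in all 6 libraries, among 20323 such genes in all. The 40 comprised 7 NMDA, 5 kainate, 2 delta, 8 metabotropic glutamate, 16 GABA-A and 2 GABA-B receptor genes. The GABA-A genes Gabra6, Gabrp and Gabrr3 were blank in every library and could not be described.

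All animals carried a Nestin-CreERT2 transgene, an inducible Cre driven by the promoter of the progenitor gene Nes, together with a Rosa26-mGFP reporter, so that cells that had used the Nestin promoter, and their descendants, were to carry membrane GFP. Cells were taken by magnetic sorting against GFP and are labelled neural progenitor cells, and each library came from 1 brain. Every mouse ate cuprizone, a copper chelator that strips myelin, for 10 weeks and then had 4 weeks of recovery. The 3 vehicle mice were given 0.1% bovine serum albumin in saline. The 3 Nrg-1β1 mice were given neuregulin 1 beta 1, a ligand of ErbB receptors, at 60 µg per kg per day according to the series text, while the sample labels print the unit as grams, so the unit is uncertain. Age and sex are not given in the labels used here.

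NMDA, kainate and delta receptors belong to the ionotropic glutamate receptors, which form cation channels from several subunits. Metabotropic glutamate receptors and GABA-B receptors are G protein-coupled, whereas GABA-A receptors are pentameric chloride channels that carry most fast inhibition in the brain. In the hippocampus, neurons, astrocytes and cells of the oligodendrocyte lineage each carry their own selection of these receptors, and several subunits are exchanged as neurons mature.

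Read depth differed between libraries and partly with the group. Vehicle libraries 1 and 3 held 72953034 and 47076006 reads, while vehicle library 2 held 1075813 and the Nrg-1β1 libraries 567073 to 1327003. A single read was worth 3.09 normalized counts in vehicle library 2 and 3.04 to 5.17 in the Nrg-1β1 libraries, against 0.0605 in the deep libraries. At least 10 reads were found for 36, 20 and 38 of the 40 receptor genes in vehicle libraries 1 to 3 and for 14, 17 and 23 in Nrg-1β1 libraries 1 to 3, and 12 genes reached 10 reads in every library. Sex-linked transcripts differed as well. Reads of Xist numbered 3255, 216 and 1045 in vehicle libraries 1 to 3 and 2, 3 and 1 in Nrg-1β1 libraries 1 to 3. Those of Ddx3y on the Y chromosome numbered 82, 1 and 1994 under vehicle and 29, 22 and 15 under Nrg-1β1, at the unlike depths given above. Vehicle library 1, the deepest, thus held some Ddx3y reads beside many of Xist. Vehicle library 3 held both kinds in high number, with 1045 reads of Xist and 1994 of Ddx3y. Whether that library holds RNA of a single animal was not tested, nor was the part of sex in the receptor values. Of the progenitor markers, Sox2 had at least 85 reads and Nes at least 6 in every library. Mki67, a gene of cycling cells, had 90, 0 and 80 reads under vehicle and 0, 1 and 2 under Nrg-1β1. These reads follow depth, and on the deposited log2 scale the Mki67 means were 2.79 and 2.84, a difference of 0.05 ± 0.52 (SE). The libraries also held reads of markers of mature neurons, astrocytes, oligodendrocytes, microglia and vessels, and the receptor values are those of all cells in a library. In such bulk samples, fewer cells of a type and less RNA per cell cannot be told apart.

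Levels between genes were compared as normalized counts per kilobase of exon. Gabbr1, which encodes the ligand-binding subunit of the GABA-B receptor, had the highest mean over the 6 libraries, 268 ± 123 (SD), and ranked first or second in each library. Its mean was 165 ± 46.4 under vehicle, where Grik5 had 173 ± 67.5, and 371 ± 62.0 under Nrg-1β1, where Grik5 had 212 ± 83.5 (SD, n = 3 each). Grik5, which encodes the high-affinity kainate subunit GluK5, had 192 ± 71.2 over all libraries and ranked between 1 and 3. The metabotropic receptor gene Grm3 had 118 ± 36.5, and Grin2c, which encodes the NMDA subunit GluN2C, had 79.0 ± 15.8. These 4 genes took ranks 1 to 5 in every library, of both groups. By the mean over all libraries Gabbr2 came next (41.6 ± 24.1), before Gabrg1 (24.5 ± 7.06), Gabra3 (23.5 ± 8.19) and Grin1 (20.1 ± 3.01). Under vehicle alone Gabbr2 had 25.7, below Gabrg1 (27.0) and Gabra3 (28.7), while under Nrg-1β1 it had 57.6, above both (22.05 and 18.3). Every pair of neighbours in the order of the 40 genes had overlapping ranges over the libraries, so the order within the top 4 was not separated from the spread either. With coding length in place of exon length, a choice made after the data were seen, the first 6 genes kept their order. Gabrb1, which has long untranslated stretches, then moved from rank 21 to 7 and Grin2b from 32 to 26.

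**Figure D1:**
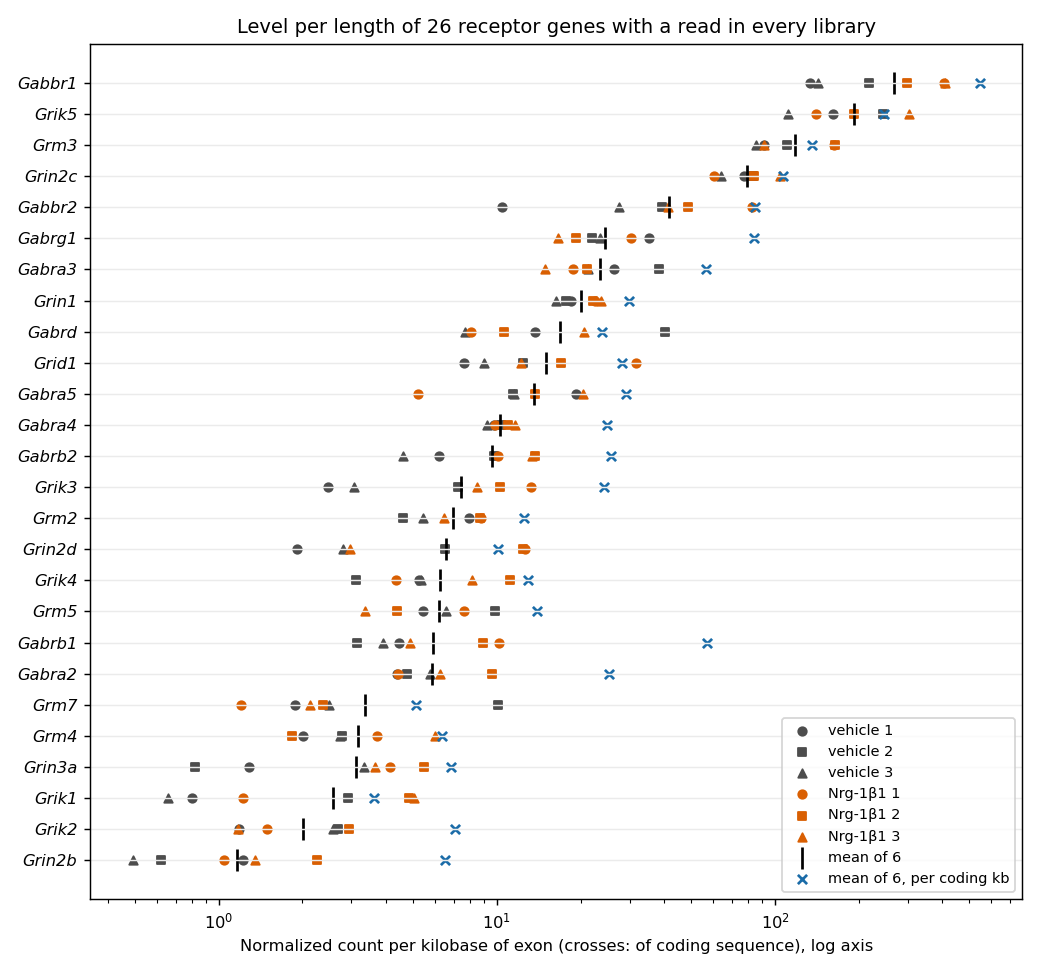
Normalized counts per kilobase of exon (x axis, log scale) of 26 of the 30 receptor genes with a read in every library, ordered by their mean over both groups. Points are libraries, black bars are means over the 6 libraries, and blue crosses are means per kilobase of coding sequence. Gabbr1, Grik5, Grm3 and Grin2c lie at the top in both groups, and Gabrb1 moves most between the length scales.

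In the GluN2 family the subunits best known from mature forebrain neurons were not those with the highest level. Among the GluN2 genes, Grin2c had 79.0 per kilobase of exon, Grin2d 6.54, Grin2b 1.17 and Grin2a 0.224, and per kilobase of coding sequence the values were 107, 10.1, 6.50 and 0.765, in the same order. Grin2a, the main GluN2 gene of the adult hippocampus besides Grin2b, was covered by 16, 1 and 47 reads under vehicle and by 0, 2 and 1 under Nrg-1β1. Among the GABA-A genes Gabrg1 had 24.5 per kilobase of exon and 18 to 2785 reads in a library. Grin2c, Grm3 and Gabrg1 are known from forebrain astrocytes, and Gabrg1 also from oligodendrocyte progenitors.

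No receptor gene passed an adjusted p of 0.05 between Nrg-1β1 and vehicle (limma, Benjamini-Hochberg over 20323 genes), where 1.06% of all genes did. At an unadjusted p under 0.05 there were 6 of 40 receptor genes (15.0%), all with the higher value in Nrg-1β1, while over all genes 6.15% were higher and 6.86% lower. With limma-voom on the recovered reads, 0 receptor genes passed, against 0.108% of all genes, and 12 had an unadjusted p under 0.05, all higher, where 22.3% of all genes were. On the deposited values the 6 were Gabbr1, Grik3, Gabbr2, Gabrb1, Grid1 and Grin3a. The groups did not overlap for 8 receptor genes with higher values in Nrg-1β1 (20%, against 7.37% of all genes) and for 1 with lower values, Gabra3 (2.50%, against 10.4%). Differences were above 0 for 29 of 40 receptor genes (72.5%) and for 52.2% of all genes. On the scale of the deposited values, log2(normalized count + 4), the median of Nrg-1β1 less vehicle was 0.36 over the receptor genes and 0.03 over all genes. The number of genes called over all genes, 216 (89 higher and 127 lower), was 56, 0 and 4 without vehicle library 1, 2 or 3 and 0 without any 1 of the Nrg-1β1 libraries. It was 499 (335 higher and 164 lower) once each library was centred on its median, which moved the median difference over all genes to 0.25.

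Depth class moved with these values. Vehicle library 2, the shallow one, lay above both other vehicle libraries for 22 of 40 receptor genes (55.0%) and for 32.3% of all genes. Against vehicle library 2 alone, which has a depth like that of the Nrg-1β1 libraries, the median difference over the receptor genes was 0.27 and over all genes 0.07, with 28 of 40 receptor genes above 0 (70.0%, against 53.5% of all genes). That comparison rests on a single vehicle library.

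**Figure D2:**
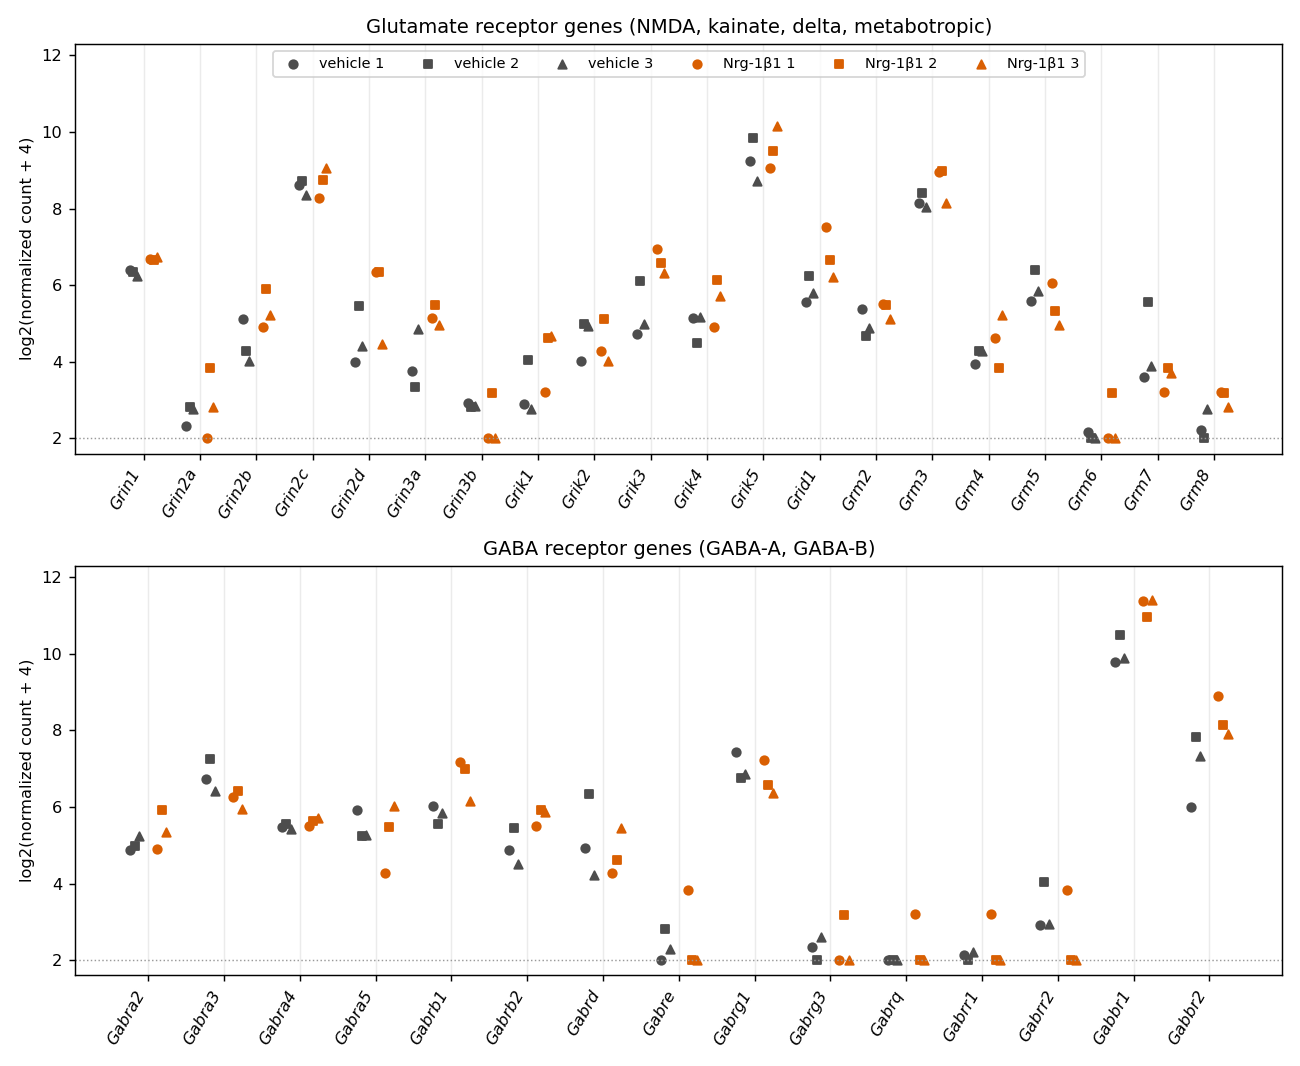
Deposited log2(normalized count + 4) values (y axis) of 35 receptor genes in each of the 6 libraries, glutamate receptor genes above and GABA receptor genes below. The dotted line at 2 marks a count of 0. The groups do not overlap for Gabbr1, Gabbr2 and Grik3, and many genes near the line had only a few reads in the shallow libraries.

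**Figure D3:**
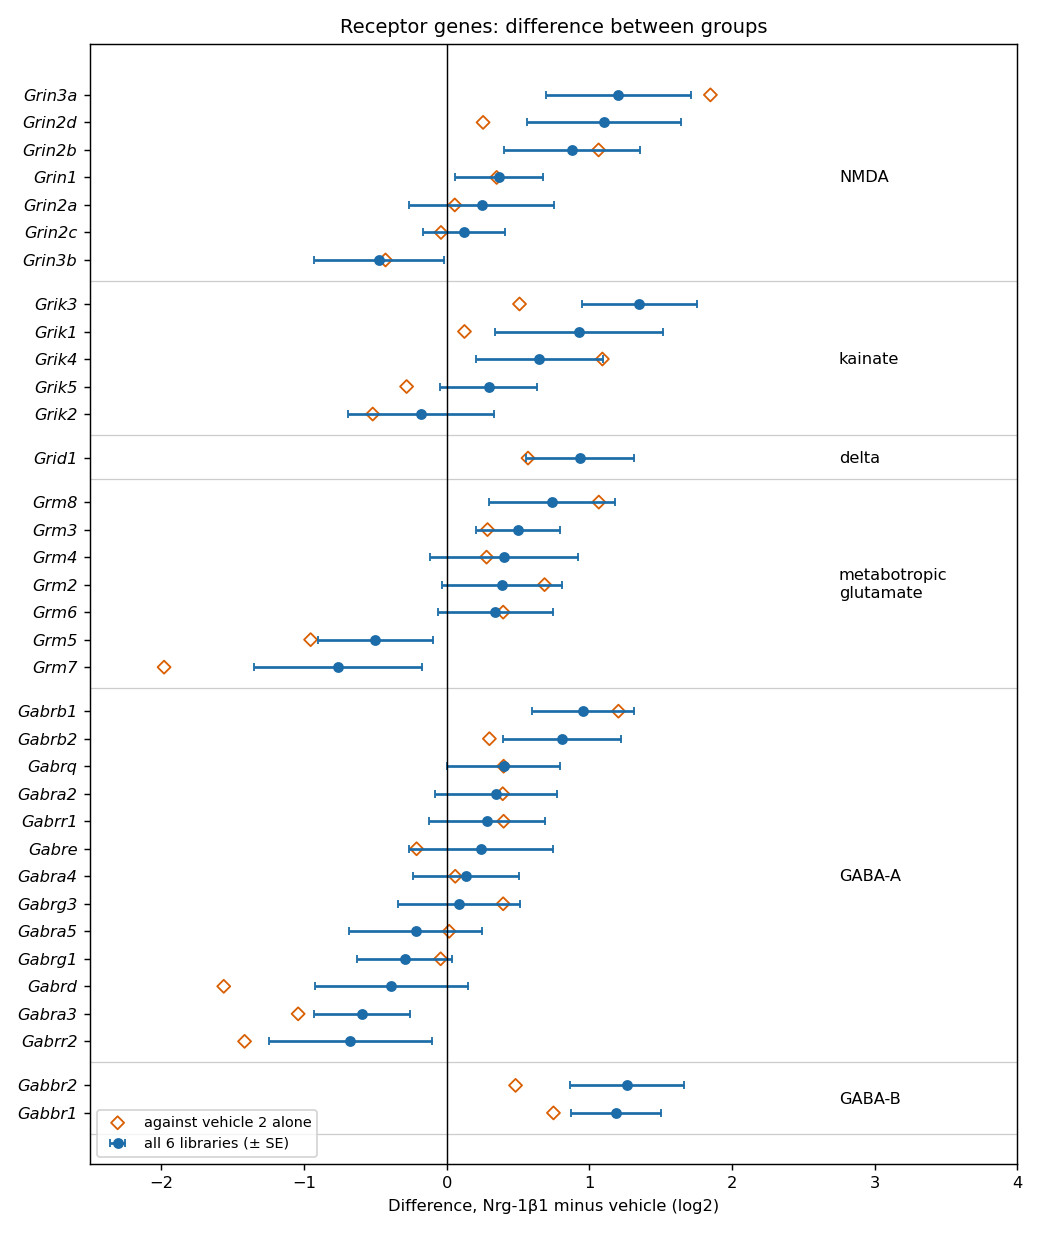
Difference between Nrg-1β1 and vehicle on the log2 scale (x axis) of 35 receptor genes, by class. Filled points with bars are the differences over all 6 libraries with their SE, and open diamonds are the differences against vehicle library 2 alone. The differences run from -0.76 for Grm7 to 1.35 for Grik3.

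The GABA-B receptor genes supplied more reads than any other class in every library. The receptor works as an obligate pair, in which the Gabbr1 product binds GABA and the Gabbr2 product couples to the G protein. Gabbr1 had log2 values of 9.79, 10.50 and 9.89 under vehicle (14550, 467 and 15649 reads) and of 11.38, 10.95 and 11.40 under Nrg-1β1 (516, 387 and 890 reads). The groups did not overlap, and vehicle library 2 was the vehicle library nearest to the Nrg-1β1 values. The means were 10.06 ± 0.38 and 11.25 ± 0.25 (SD, n = 3 each), and they differed by 1.19 ± 0.32 (SE, adjusted p = 0.0717, limma), which missed the threshold. For Gabbr2 the values were 6.0, 7.84 and 7.34 under vehicle and 8.90, 8.15 and 7.91 under Nrg-1β1. The groups again did not overlap, but vehicle library 2 and Nrg-1β1 library 3 lay close together. The difference was 1.26 ± 0.40 (SE, adjusted p = 0.135, limma). Against vehicle library 2 alone the differences were 0.75 for Gabbr1 and 0.48 for Gabbr2. Once libraries were centred on their medians, 3 receptor genes passed, Gabbr1 (1.40, adjusted p = 0.0438, limma), Gabbr2 (1.48, adjusted p = 0.0318) and Grik3 (1.56, adjusted p = 0.0396), where 2.46% of all genes did. Together the pair supplied 29.3%, 36.9% and 36.8% of all receptor reads under vehicle and 53.3%, 42.5% and 48.9% under Nrg-1β1, a share that does not depend on how the libraries were scaled. All receptor genes together had 726, 1359 and 1054 CPM, the reads scaled to a common library total, under vehicle and 2012, 1567 and 1491 under Nrg-1β1. Without the GABA-B pair the values were 513, 857 and 666 under vehicle and 940, 901 and 761 under Nrg-1β1, where vehicle library 2 lay inside the Nrg-1β1 range. The summed normalized count of the pair was 941, 1667 and 1104 under vehicle and 3141, 2258 and 2941 under Nrg-1β1.

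Both GABA-B genes and Grik3 had the smallest p-values of the receptor genes, so their promoters from RefSeq (GRCm38.p6, 300 bases around the annotated start) are shown for comparison. Capitals mark the GC box GGGCGG on either strand, which Sp-family factors are known to bind.
Gabbr1, GRCm38.p6 chr17:37045716-37046015, plus strand: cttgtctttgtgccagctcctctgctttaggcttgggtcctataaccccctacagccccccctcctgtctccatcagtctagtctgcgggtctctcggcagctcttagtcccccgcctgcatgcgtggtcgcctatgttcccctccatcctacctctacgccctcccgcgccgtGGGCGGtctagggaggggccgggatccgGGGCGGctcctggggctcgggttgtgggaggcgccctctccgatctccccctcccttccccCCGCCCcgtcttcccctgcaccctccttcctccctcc
Gabbr2, GRCm38.p6 chr4:46991665-46991964, minus strand: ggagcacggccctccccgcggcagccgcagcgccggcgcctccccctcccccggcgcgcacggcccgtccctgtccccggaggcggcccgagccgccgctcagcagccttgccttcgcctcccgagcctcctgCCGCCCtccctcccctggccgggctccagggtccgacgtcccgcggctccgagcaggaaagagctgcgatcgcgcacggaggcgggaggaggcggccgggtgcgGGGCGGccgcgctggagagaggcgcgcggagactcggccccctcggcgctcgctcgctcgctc
Grik3, GRCm38.p6 chr4:125490446-125490745, plus strand: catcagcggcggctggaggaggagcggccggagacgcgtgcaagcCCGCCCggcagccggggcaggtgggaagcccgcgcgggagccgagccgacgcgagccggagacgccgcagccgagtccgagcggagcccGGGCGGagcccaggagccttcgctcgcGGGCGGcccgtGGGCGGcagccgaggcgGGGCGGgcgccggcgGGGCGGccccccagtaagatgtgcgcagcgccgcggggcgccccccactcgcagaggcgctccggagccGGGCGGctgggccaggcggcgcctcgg
The Gabbr1 promoter held 3 GC boxes and 18 CpG dinucleotides, that of Gabbr2 2 and 46, and that of Grik3 7 and 50. No GC box overlapped another. A GC box stood in 35.7% of all 32851 promoters and in 19 of the 34 receptor promoters (55.9%), which belong to the 27 receptor genes that the table holds. The cyclic AMP response element TGACGTCA stood in none of the 34 and in 1.79% of all promoters, and TATAAA in 4 of the 34 (11.8%) and in 13.6% of all, both strands searched. The median CpG count was 12 in the receptor promoters and 7 over all. These matches describe the sequence only.

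Among the kainate receptor genes 4 of 5 had a positive difference, with a median of 0.65. Grik3, which encodes a low-affinity kainate subunit, had log2 values of 4.72, 6.10 and 4.98 under vehicle (368, 21 and 455 reads) and of 6.94, 6.58 and 6.32 under Nrg-1β1 (23, 18 and 25 reads). The groups did not overlap, and vehicle library 2 lay much nearer to the Nrg-1β1 values than the deep vehicle libraries did. The difference was 1.35 ± 0.40 (SE, adjusted p = 0.112, limma) over all libraries and 0.51 against vehicle library 2. Grik1 had 2.89, 4.03 and 2.76 under vehicle and 3.20, 4.61 and 4.66 under Nrg-1β1, where it had 1, 4 and 7 reads, and the groups overlapped. Grik5, the kainate gene with the most reads, had 9.25, 9.86 and 8.73 under vehicle and 9.05, 9.51 and 10.16 under Nrg-1β1. Its groups overlapped throughout, and its difference of 0.29 ± 0.34 (SE) turned to -0.28 against vehicle library 2. The other kainate genes, Grik2 and Grik4, also overlapped between groups.

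In the NMDA class, 6 of 7 genes had a positive difference and the median was 0.36. Grin1 encodes GluN1, the subunit present in every NMDA receptor. It had 6.40, 6.34 and 6.24 under vehicle and 6.67, 6.66 and 6.75 under Nrg-1β1, so that the groups did not overlap and were tight within themselves. The difference was 0.36 ± 0.31 (SE, adjusted p = 0.686, limma) and did not pass in a test that shares its spread over genes of like level. Of the exon bases of Grin1, 29.9% are shared with Grin1os on the opposite strand, and without a stated strand setting their reads cannot be told apart. Grin3a, whose subunit GluN3A lowers calcium entry in young neurons, had 3.77, 3.35 and 4.86 under vehicle and 5.13, 5.49 and 4.97 under Nrg-1β1. Vehicle library 3 lay just below Nrg-1β1 library 3, and the Nrg-1β1 values rest on 6, 8 and 9 reads. Its difference was 1.20 ± 0.51 (SE, adjusted p = 0.307, limma).

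The GluN2 genes overlapped between the groups. Grin2b had 5.11, 4.28 and 4.01 under vehicle and 4.90, 5.91 and 5.23 under Nrg-1β1, a difference of 0.88 ± 0.48 (SE). Grin2d, an embryonic and interneuron subunit, had 3.98, 5.46 and 4.41 under vehicle and 6.35, 6.33 and 4.47 under Nrg-1β1, where library 3 lay with the vehicle libraries. Its difference was 1.10 ± 0.54 (SE) over all libraries and 0.25 against vehicle library 2. Grin2c had 8.62, 8.73 and 8.35 under vehicle and 8.27, 8.74 and 9.05 under Nrg-1β1. Its difference of 0.12 ± 0.29 (SE) was small beside the spread between libraries. Grin2a differed by 0.24 ± 0.51 (SE) on its few reads, where a difference was not detectable. Grin3b had 1 read over the Nrg-1β1 group.

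Delta receptors bind cerebellins at synapses rather than acting as classical glutamate-gated channels. Grid1 had 5.57, 6.23 and 5.79 under vehicle and 7.53, 6.66 and 6.21 under Nrg-1β1. Vehicle library 2 lay just above Nrg-1β1 library 3, so the groups overlapped, and the difference was 0.93 ± 0.38 (SE, adjusted p = 0.274, limma).

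The metabotropic glutamate receptor genes had no member with an unadjusted p under 0.05, and 6 of 8 differences were positive (median 0.39). In group I, which couples to phospholipase C, Grm5 had 5.60, 6.40 and 5.84 under vehicle and 6.04, 5.31 and 4.97 under Nrg-1β1. The groups overlapped, and the difference was -0.50 ± 0.40 (SE). In group II, which lowers cyclic AMP, Grm3 had 8.14, 8.41 and 8.04 under vehicle and 8.97, 8.98 and 8.15 under Nrg-1β1, a difference of 0.50 ± 0.30 (SE, adjusted p = 0.516, limma). Nrg-1β1 library 3 lay inside the vehicle range for this gene. Grm2 differed by 0.39 and overlapped. In group III, which is mainly presynaptic, Grm4, Grm6 and Grm7 overlapped and Grm8 did not. Grm8 had 1 read in each Nrg-1β1 library and 11, 0 and 46 reads under vehicle, so its values there are those of a single read in a shallow library. Grm7 had 3.59, 5.56 and 3.88 under vehicle and 3.20, 3.83 and 3.71 under Nrg-1β1, on 1, 2 and 3 reads in the latter. Grm6, the receptor of retinal ON bipolar cells, had 8 reads in vehicle library 1, 1 in Nrg-1β1 library 2 and 0 elsewhere.

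The GABA-A genes were divided, with 9 of 16 differences above 0 and a median of 0.11. They supplied 19.1%, 14.0% and 15.9% of receptor reads under vehicle and 11%, 12% and 9.05% under Nrg-1β1, while their summed normalized count overlapped between the groups (479 to 630 and 544 to 651). Among the beta subunits, which every common GABA-A receptor needs, Gabrb1 had 6.02, 5.56 and 5.85 under vehicle and 7.16, 6.98 and 6.15 under Nrg-1β1. The groups did not overlap, and the difference was 0.95 ± 0.36 (SE, adjusted p = 0.232, limma) and 1.20 against vehicle library 2. Gabrb2 had 4.88, 5.46 and 4.52 under vehicle and 5.50, 5.91 and 5.88 under Nrg-1β1, and the gap between the groups was narrow. Its difference was 0.81 ± 0.41 (SE, adjusted p = 0.43, limma) and 0.30 against vehicle library 2.

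Among the alpha subunits, which set benzodiazepine pharmacology, Gabra2 had 4.89, 4.99 and 5.24 under vehicle and 4.90, 5.91 and 5.34 under Nrg-1β1. Gabra5, the gene of the extrasynaptic alpha subunit of hippocampal pyramidal cells, had 5.93, 5.25 and 5.26 under vehicle and 4.29, 5.49 and 6.02 under Nrg-1β1. The groups overlapped for both, and the differences were 0.35 ± 0.43 for Gabra2 and -0.22 ± 0.47 for Gabra5 (SE). Gabra3 had 6.72, 7.25 and 6.43 under vehicle and 6.25, 6.42 and 5.95 under Nrg-1β1, and was the receptor gene whose Nrg-1β1 values all lay below vehicle. Vehicle library 3 and Nrg-1β1 library 2 nearly coincided, and the difference was -0.59 ± 0.33 (SE, adjusted p = 0.481, limma). Gabra4 varied little, with 5.49 ± 0.07 under vehicle and 5.62 ± 0.11 under Nrg-1β1 (SD, n = 3 each).

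Of the remaining GABA-A genes, Gabrg1 had 7.43, 6.77 and 6.86 under vehicle and 7.22, 6.58 and 6.38 under Nrg-1β1, with a difference of -0.30 ± 0.33 (SE). Gabrd, the delta subunit gene of tonic inhibition in dentate granule cells, had 4.93, 6.34 and 4.23 under vehicle and 4.29, 4.61 and 5.44 under Nrg-1β1. Vehicle library 2 was the highest of all for Gabrd, and its difference went from -0.39 over all libraries to -1.56 against that library and to 0.20 without it. Gabre, Gabrg3, Gabrq, Gabrr1 and Gabrr2 had at most 2 reads each over the Nrg-1β1 group, and Gabrq had 1 read in all libraries together. No difference could be detected for these genes at such depths.

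Most GABA-A genes lie beside each other in the genome, in clusters inherited from an ancestral cluster. In the order of genes in GRCm38.p6, used for neighbours only, Gabrg1, Gabra2, Gabra4 and Gabrb1 form one such cluster, with differences of -0.30, 0.35, 0.13 and 0.95. This cluster held differences of both signs.

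Shares of subunit reads within a library do not depend on how libraries are scaled, and 4 of them were compared, of which 3 are given. Grm5 made up 13.7%, 19.3% and 17.0% of Grm3 and Grm5 reads under vehicle and 11.1%, 6.67% and 8.91% under Nrg-1β1. All Nrg-1β1 shares lay below all vehicle shares, at 8.90% ± 2.22 against 16.7% ± 2.77 (SD, n = 3 each). The exact permutation test gave p = 0.1 (two-sided), the smallest that 3 against 3 libraries allow, and 0.4 after adjustment over the 4 shares. The Nrg-1β1 shares rest on 12, 7 and 9 Grm5 reads. Counting intervals were wide in the shallow libraries, from 5.87% to 18.6% in Nrg-1β1 library 1. Gabbr2 made up 11.4% ± 4.35 of GABA-B reads under vehicle and 11.9% ± 3.57 under Nrg-1β1 (exact permutation p = 0.9, adjusted 0.9), while both genes had higher values in Nrg-1β1. Grin2b made up 87.1% ± 8.58 of Grin2a and Grin2b reads under vehicle and 92.1% ± 7.70 under Nrg-1β1 (exact permutation p = 0.5, adjusted 0.667), on as few as 5 reads in a library.

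**Figure D4:**
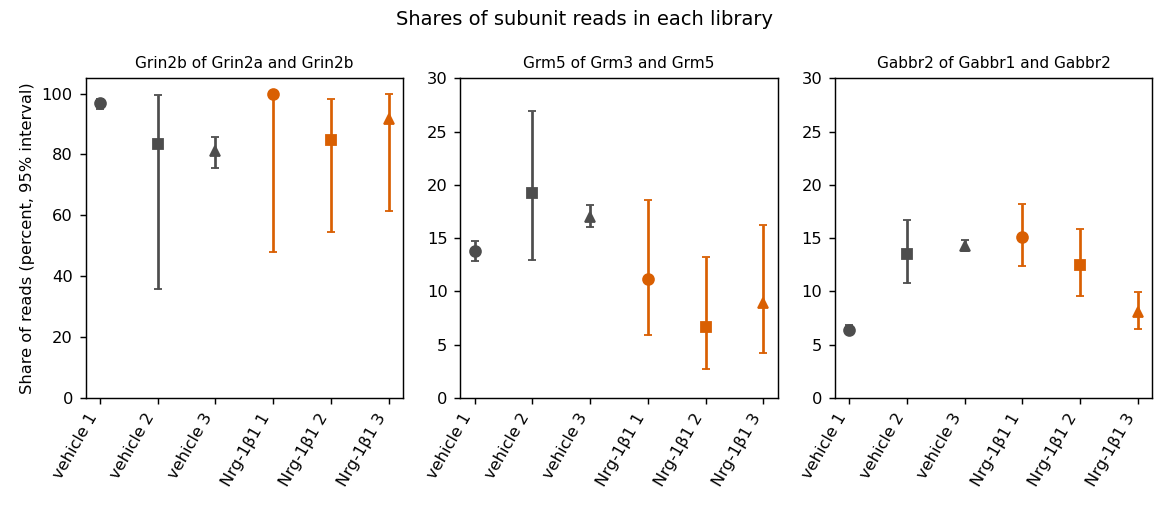
Share of reads of 1 subunit gene among the named genes (y axis, percent) in each library, with exact 95% binomial intervals that cover counting error only. The panels differ in their y range. The Grm5 shares of the 3 Nrg-1β1 libraries, 6.67% to 11.1%, lie below the 3 vehicle shares, 13.7% to 19.3%.

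Among genes whose products anchor, assemble or serve the receptors, 0 of 25 glutamate and 0 of 22 GABA receptor partners passed the threshold (limma), where 1.06% of all genes did, and 0 passed with limma-voom. At an unadjusted p under 0.05 there were 4 glutamate and 6 GABA partners, against 13.0% of all genes. The median difference was 0.07 over the glutamate partners and 0.42 over the GABA partners, and the groups did not overlap for 3 and 7 genes with higher values in Nrg-1β1 and for 2 and 3 with lower values, against 7.37% and 10.4% of all genes. Gabarap, whose protein binds the gamma subunit of GABA-A receptors, had 6.19, 5.65 and 6.21 under vehicle and 7.95, 7.70 and 6.57 under Nrg-1β1 (adjusted p = 0.0711, limma). Kctd12, an auxiliary subunit gene of the GABA-B receptor, had 9.12, 10.12 and 9.30 under vehicle and 8.70, 8.46 and 7.95 under Nrg-1β1. Its difference of -1.14 ± 0.32 (SE, adjusted p = 0.085, limma) was opposite in sign to those of Gabbr1 and Gabbr2. The groups did not overlap for Gabarap or Kctd12. Grina, which encodes a glutamate receptor-associated protein, had 8.95, 8.89 and 8.90 under vehicle and 10.40, 10.80 and 8.86 under Nrg-1β1, where library 3 lay below the vehicle libraries (difference 1.11 ± 0.38, adjusted p = 0.184, limma). Homer1, a scaffold of group I metabotropic receptors, had 6.11, 5.46 and 5.73 under vehicle and 6.52, 6.98 and 6.62 under Nrg-1β1, without overlap (0.94 ± 0.34, adjusted p = 0.214, limma).

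Marker genes of several cell types moved with the groups beside these values. For the counts that follow, 7.37% of all genes did not overlap with higher values in Nrg-1β1 and 10.4% with lower values, and 1.06% were called. The summed normalized count of 10 astrocyte markers was 23792 to 35217 under vehicle and 39591 to 44678 under Nrg-1β1, and 6 of the 10 did not overlap between the groups, all with higher values in Nrg-1β1. For 10 neuron markers the sums were 4847 to 7946 and 8859 to 12156, and 2 of the 10 did not overlap. The 10 interneuron markers had 318 to 554 and 444 to 577. The 10 oligodendrocyte progenitor markers had 2056 to 3143 and 2750 to 5119, with C1ql1 called higher and 3 of the 10 wholly above vehicle. Differences were negative for Cspg4 (-0.64), Sox10 (-0.27) and Gpr17 (-0.20) and positive for the others. The 8 dentate granule cell markers had 326 to 395 and 222 to 291, with Dock10 called lower (-1.61) and 2 of the 8 wholly below vehicle. Dock10 had the highest value of the 8 in vehicle libraries 2 and 3, so it weighs on these sums. The other markers differed by -0.92 to 0.42. Prox1 (0.11), C1ql2 (0.17) and Neurod2 (0.42) had positive differences and the rest negative ones. The 10 progenitor and neuroblast markers had 922 to 1392 and 1782 to 2227, with Sox1 called higher and the only 1 of the 10 wholly above vehicle. Wholly below vehicle were Nes, with 6.58, 6.23 and 7.89 against 5.13, 5.64 and 4.97 (difference -1.65 ± 0.42, adjusted p = 0.0582, limma), and Igfbpl1 (-0.86 ± 0.52). Eomes differed by -0.93 ± 0.52. The mature oligodendrocyte markers, 10 genes, had 94562 to 191420 and 108504 to 141209. All 10 microglia markers (7205 to 11980 against 2619 to 3412, 7 called) and all 10 endothelial markers (648 to 3387 against 124 to 164, 9 called) had lower values in every Nrg-1β1 library than in any vehicle library, as did 6 of 9 choroid plexus and ependymal markers (1544 to 5356 against 174 to 313, 4 called). Of all these markers, Kcne2 alone was at 0 in every Nrg-1β1 library. The part of these cell types in the receptor values was not tested.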

How the data were processed

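RNA was sequenced from 6 libraries, 1 per animal, 3 per group. Trimmomatic and Bowtie2 are listed, without their roles, in the submitters' processing notes. No version, genome build, counting tool, strandedness, scaling method or filter is given in the sources used. The table deposited by the authors holds log2 values of 27102 genes, and 6779 genes were blank in every library. Once 4 was subtracted from the unlogged values, 100% of them fell within 0.02 reads of a whole multiple of a library's own step. They were therefore read as log2(normalized count + 4), and whole reads were recovered. Every gene analysed reached at least 0.507 CPM in some library, which a single read can meet in the shallow ones.

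The comparison was limma 3.58.1 with an intensity trend (R 4.3.3) on the deposited log2 values of 20323 genes, with all libraries, group as the only term and Benjamini-Hochberg adjustment at 0.05. The fit was also run on simulated counts at the depths of these libraries. They had the same added spread for every gene, only large changes, and no effect of sex. Such counts cannot show how the fit behaves on libraries that differ as these do. Taking each library as 1 animal, the limma p-values rest on the spread between libraries, shared over genes of like level. That spread holds counting error and differences in depth as well as differences between animals. Differences on this scale understate changes of genes with few reads. Shares were compared with exact permutation tests (SciPy 1.17.1) and have exact 95% Clopper-Pearson intervals, which cover counting error only, since copies of a molecule could not be told apart. Exon and coding lengths came from GENCODE M21 and covered all 40 receptor genes. Values in every library are given for members past the threshold, the 2 with the smallest p and the 1 with the most reads of each class, and genes chosen by name, and for partners the 2 with the smallest p of each list. Gabra3, Gabra4, Grm7 and Grm8 were described more fully after their values were seen. A few members are counted but not reported here. The members, lists and tests were chosen with earlier results of these data known.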

Additional observations from a re-analysis of the deposited data

How the results depend on the processing

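Of 20 named receptor genes, 15 kept the sign of their difference in every other setting that gave them a value, 9 of them over 18 settings and 6 over 17, since the filter on the mean normalized count left those 6 out. The cause of each change below was not tested. The genes called over all genes, 216, numbered 499 after centring on library medians, 0 with depth class as a covariate, 22 with limma-voom, 49 among genes averaging 50 or more normalized counts, 21 without the intensity trend, 129 with a pseudocount of 1, 65 after quantile normalization, 0 without the deep libraries and 0 to 56 with 1 library left out. Without vehicle libraries 1 and 2, a choice made after seeing the data, 0 were called. Receptor genes called, 0, became 3 after centring and stayed at 0 with 1 library left out. Their median difference, 0.36, was 0.57 after centring, where all genes stood at 0.25 (0.32 above all genes, as in the deposited values), 0.81 with limma-voom (0.56 above all genes), 0.50 with the filter, and 0.29 to 0.50 with 1 library left out.

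The sign turned with the depth covariate and without the deep libraries, both of which rest on vehicle library 2, for Gabra5 (0.017), Grin2c (-0.0405) and Grik5 (-0.28). Leaving out 1 library at a time gave -0.594 to 0.272 for Gabra5, -0.855 to 0.1998 for Gabrd, -0.23 to 0.685 for Grin2a and -0.0621 to 0.327 for Grin2c. Without vehicle libraries 1 and 2, Gabra5 gave 0.00229 and Gabrd 0.546. Gabrd also turned with limma-voom (0.278) and Grin2c after quantile normalization (-0.077). With 1 library left out, share differences ran over 1.04 to 9.90 points for Grin2b, -9.25 to -6.49 for Grm5 and -2.02 to 2.39 for Gabbr2. The Grin2b difference was -1.72 with pooled reads, and without the deep libraries that of Gabbr2 was -1.64.

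Deviations of libraries with the same replicate number had correlations of -0.13, -0.0017 and -0.18. Those of libraries with different numbers ran from -0.033 to 0.16. With 3 libraries per group, such correlations cannot decide whether the numbers pair the samples. A replicate block called 627 genes, 1 of them a receptor gene, Gabbr2 (adjusted p = 0.0166, limma), where 3.09% of all genes were called, and left the receptor median at 0.36. Depth limits the 11 receptor genes with under 10 reads over the Nrg-1β1 group, Grin2a, Grm8 and Grin3b among them.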
